A study of Homo sapiens with 12 samples.

Results

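The genes described are the protein kinases of the MAP kinase cascades: every gene whose symbol is MAPK, MAP2K, MAP3K or MAP4K followed directly by digits and nothing else. Only probe sets assigned to exactly 1 symbol were used, and of the probe sets of a gene the one with the highest mean log2(signal + 3) over all 12 arrays was kept. This gave 37 genes of 19775: 11 MAPK genes, 5 MAP2K genes, 18 MAP3K genes and 3 MAP4K genes. The values that chose the probe sets are these mean levels, so levels are given as a description, with no test. A further 14 genes with longer symbols that begin in the same way, such as scaffold and antisense genes, were not counted as members.

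A MAP kinase cascade is a relay of protein kinases in which each tier phosphorylates and activates the next. MAP4K enzymes can switch on MAP3K enzymes, these activate the MAP2K enzymes, and a MAP2K activates its MAP kinase by phosphorylating both a threonine and a tyrosine of its activation loop. The MAP kinases ERK, JNK and p38 then phosphorylate other kinases and transcription factors. Phorbol esters such as PMA mimic diacylglycerol, activate protein kinase C and RASGRP exchange factors, and through RAS and RAF feed into the ERK branch, which is also the branch that activated RAS drives in most pancreatic cancers. Activation is a change of phosphorylation, which these arrays do not measure: they measure the messenger RNA of the kinases.

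Total RNA from 2 human pancreatic cancer cell lines was measured on 12 Affymetrix oligonucleotide arrays. BxPC-3, from a primary pancreatic tumour, and AsPC-1, from ascites, were each kept overnight in 2.5% serum and then either left untreated or given PMA, dissolved in DMSO, at 1 µM for 4 h. The 4 groups held 3 arrays each, from 3 cell passages of the line, and an untreated and a treated array of one passage carry the same replicate number. The sources used here do not say whether untreated cells received DMSO, and the series as a whole asks how PMA changes expression in the 2 lines.

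Signal is a linear intensity. Trimmed by 2% at either end, the mean signal ran from 99.982 to 99.986 over the 12 arrays, so they share a scale. AsPC-1 PMA replicate 1 stood apart, with a mean correlation of 0.921 with the other arrays of its group, and several results are also given without it. For the ACTB control probe sets, 3′ signal over 5′ signal was 2.56, 2.95 and 4.14 in untreated BxPC-3 and 1.84, 1.99 and 2.02 after PMA. For GAPDH the same ratio was 1.04, 1.06 and 1.12 in untreated BxPC-3 and 1.00, 1.07 and 1.02 after PMA. Of the duct epithelium markers, 7 of 8 were measured and their summed signal lay between 16344 and 30200, with KRT7 at 56.9 to 223.8 in AsPC-1 against 2298 to 3355 in BxPC-3. Of 6 fibroblast markers, all measured, the summed signal was 1353 to 3426 in AsPC-1 and 145.2 to 232.4 in BxPC-3, and of 6 leukocyte markers, 4 measured, 1951 to 2756 and 26.7 to 44.0. LUM (at least 1261) and LYZ (at least 1896) were the bright members in AsPC-1, PDGFRB and PTPRC did not exceed 11.03 and 9.86 on any array, and COL1A1, COL3A1, DCN and CD14 reached 91.8, 57.7, 37.9 and 64.1. The summed signal of 5 endothelial markers was 41.9 to 80.0, and that of 5 measured acinar and endocrine markers 14.0 to 42.9. The part of other cell types in the differences between lines was not tested.

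Of the 37 genes, 34 passed the filter on low signal, which asks for a signal above the array's 40th percentile (8.18 to 10.2) on at least 3 arrays, and 29 lay above it on all 12. The genes that did not pass were MAP3K10 (2.70 to 8.28), MAP3K15 (1.17 to 8.53) and MAP3K19 (2.13 to 19.5). The next dimmest, MAPK4 (1.34 to 16.4), lay above that level on 3 arrays and so passed just inside it, while MAP3K19 lay above it on 2. Of the 37 genes, 31 had more than 1 probe set, 106 in all, and 14 of the kept probe sets carry the mark s or x, so that related transcripts can also bind them. Probe sets differ in how brightly they bind, so signals of different genes were not set against each other.

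**Figure D1:**
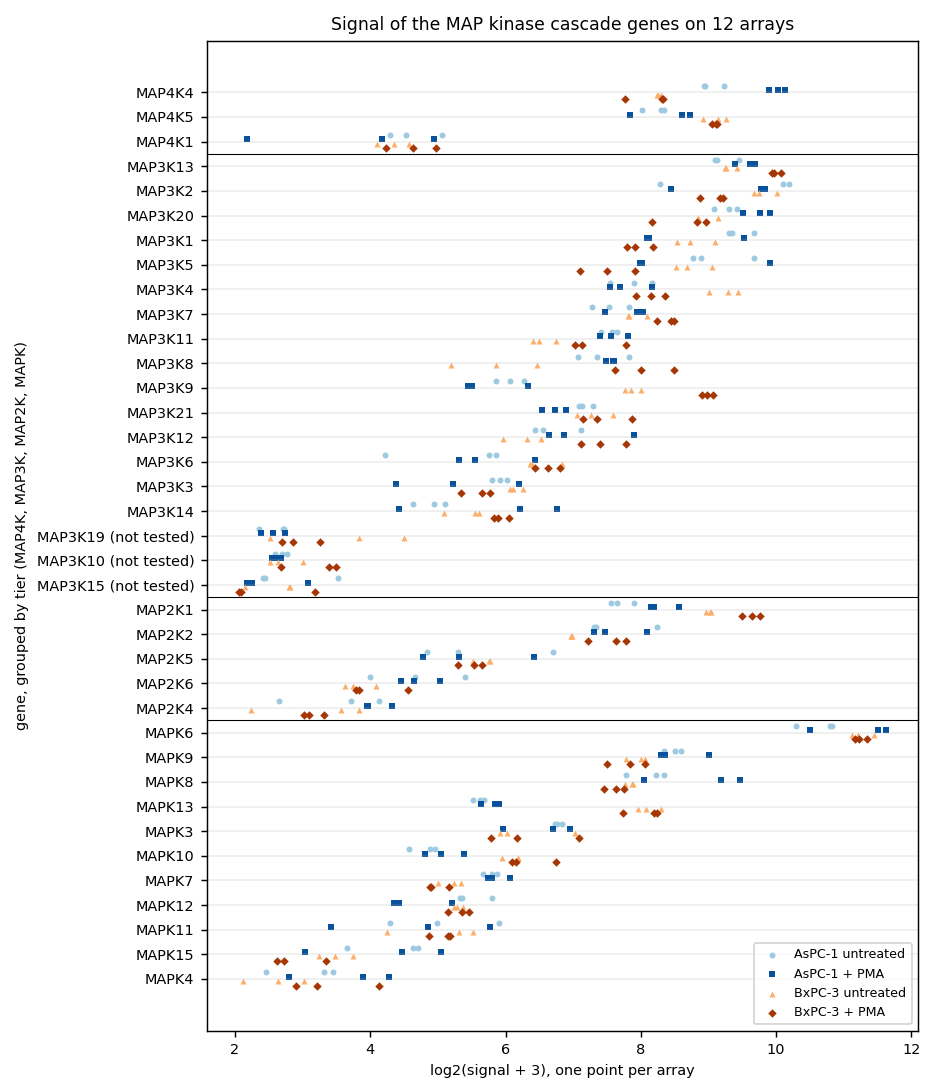
Signal of the 37 genes on the 12 arrays as log2(signal + 3), 1 point per array, coloured by group, with the genes grouped by tier and, only for display, sorted by mean within a tier. Several genes show the 2 lines apart on all arrays, among them MAPK13, MAP3K9 and MAP2K1, and MAP3K8 shows untreated BxPC-3 below the other groups.

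Terminal kinases came in the classes ERK (MAPK3 and MAPK7, and the atypical MAPK4, MAPK6 and MAPK15), JNK (MAPK8, MAPK9 and MAPK10) and p38 (MAPK11, MAPK12 and MAPK13). Signal of MAPK3, which encodes ERK1, lay between 52.4 and 132.9 with a median of 102 and no separation of groups, on a probe set with the x mark. MAPK6, the gene of the atypical kinase ERK3, lay between 1249 and 3143. JNK1, from MAPK8, ranged from 171.8 to 708.0, and JNK2, from MAPK9, from 177.7 to 514.3. MAPK10 encodes JNK3, a form known mainly from neurons, and gave 20.7 to 104.2. MAPK7, the ERK5 gene, gave 26.6 to 64.3, and MAPK15, or ERK8, lay between 3.15 and 30.2. The p38 genes MAPK11 and MAPK12 gave 7.73 to 56.8 and 17.5 to 52.5, and MAPK13, the p38 delta gene of epithelia, gave 42.7 to 310.8.

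In the MAP2K tier, MAP2K1 and MAP2K2 encode MEK1 and MEK2, the activators of ERK. MAP2K1 ranged from 185.8 to 867.5 and MAP2K2 from 122.3 to 298.5. MAP2K4 activates JNK and p38 and was close to the filter level, at 1.71 to 17.0, above the 40th percentile on 6 arrays. MAP2K6, an activator of p38, gave 9.37 to 39.4, and MAP2K5, the activator of the large ERK from MAPK7, gave 24.6 to 101.1.

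The MAP3K tier is the most varied in what it responds to, from cytokine receptors to oxidative stress. Over the 12 arrays the bright probe sets of MAP3K1, MAP3K2, MAP3K13 and MAP3K20 ranged from 219.0 to 818.1, 309.2 to 1167.8, 544.8 to 1079.9 and 284.6 to 957.5. MAP3K3, MAP3K6 and MAP3K14 ranged from 17.8 to 73.7, 15.6 to 111.3 and 18.4 to 105.1. The other 8 tested MAP3K genes are MAP3K4, MAP3K5, MAP3K7, MAP3K8, MAP3K9, MAP3K11, MAP3K12 and MAP3K21, and each lay above the filter level on all 12 arrays. In the MAP4K tier, MAP4K4 ranged from 214.6 to 1118.3, MAP4K5 from 225.0 to 607.2, and MAP4K1, known mainly from blood cells, from 1.52 to 30.4.

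In BxPC-3, 5 of the 34 tested genes passed for PMA in limma (14.7%), against 5.82% of all genes. By tier these were 4 of 15 MAP3K genes, the largest tier, and 1 of 5 MAP2K genes. Of 34 genes tested, 4 rose, against a background of 2.52% of all 16099 genes, and 1 fell, against 3.30% (limma, adjusted p under 0.05 over all genes). The risers were MAP3K8, MAP3K9, MAP3K13 and MAP2K1, and the gene that fell was MAP3K4. Treated and untreated arrays did not overlap for 15 of the 34 genes, against 38.9% of all genes, and the shares of the background are printed for reading the counts, not as a test of the genes as a set. The median log2 change of the 34 genes was 0.02 and that of all genes 0.00. The ACTB ratio given above moved with treatment in this line, and its part in these values was not tested.

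MAP3K8 encodes the kinase TPL2, also called COT, which activates MEK in cells given inflammatory signals. Its signal in untreated BxPC-3 was 33.7, 55.1 and 85.6 in replicates 1, 2 and 3, and 194.5, 357.9 and 254.8 after PMA. All 3 treated arrays lay above all 3 untreated ones. Group means were 58.2 ± 26.1 untreated and 269.0 ± 82.6 treated (SD, n = 3). On the log2 scale this was a rise of 2.20 ± 0.32 (SE, limma adjusted p = 0.00163), or 4.60-fold. In AsPC-1 the untreated arrays read 224.5, 131.7 and 160.9 and the treated ones 190.2, 191.2 and 175.8, so the groups overlapped, and the change was 0.14 ± 0.32 (limma adjusted p = 0.879). The gene's other probe set was dim, with group means of 3.3 to 12.1, and changed by 0.35 ± 0.70 in BxPC-3 (limma adjusted p = 0.846). With both probe sets averaged the change was 1.27 and did not pass (limma adjusted p = 0.0955).

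The promoter of MAP3K8 is shown because of the size of this rise and because the gene is a known member of the NF-kB and MAP kinase circuitry. It lies at chr10:30433771-30434020 on the plus strand of GRCh38.p14 (RefSeq), the 250 bases before the annotated start, and capitals mark a match to the NF-kB consensus that reads on the reverse strand and whose first base is 29 bases before the start.
MAP3K8: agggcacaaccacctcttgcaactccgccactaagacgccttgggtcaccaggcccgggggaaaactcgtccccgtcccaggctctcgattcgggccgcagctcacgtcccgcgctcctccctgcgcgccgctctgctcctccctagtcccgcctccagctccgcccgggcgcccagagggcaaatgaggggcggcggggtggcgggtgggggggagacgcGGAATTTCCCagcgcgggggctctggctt
Such a match stood in 5.05% of 27305 RefSeq promoters of this length, and among the 34 genes of the family with a promoter in the table it also stood in MAP3K11 and MAPK11. A match is a run of letters and not a measured site.

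MAP3K9, or MLK1, is a mixed-lineage kinase that feeds JNK. It read 253.9, 229.5 and 214.5 in untreated BxPC-3 and 474.4, 499.1 and 532.6 after PMA. No treated value came near an untreated one, and the change was 1.10 ± 0.24 (SE, limma adjusted p = 0.0174), or 2.15-fold. AsPC-1 gave 74.6, 63.7 and 54.8 untreated and 77.4, 42.2 and 40.4 after PMA, a change of -0.31 ± 0.24 (limma adjusted p = 0.578). The dimmer probe set of MAP3K9 changed by 0.65 ± 0.43 in BxPC-3, and the mean of both by 0.88 (limma adjusted p = 0.109).

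MAP3K13, or LZK, a relative of the MLK kinases, read 602.8, 612.4 and 681.3 in untreated BxPC-3 and 999.8, 1079.9 and 975.9 after PMA. The treated arrays again lay all above the untreated ones, with a change of 0.69 ± 0.15 (SE, limma adjusted p = 0.0172). In AsPC-1 it read 701.0, 544.8 and 558.4 untreated and 825.7, 783.1 and 666.5 after PMA, higher in each of the 3 passage pairs, although the groups overlapped and the change of 0.34 ± 0.15 did not pass (limma adjusted p = 0.282). Its second bright probe set moved in parallel in BxPC-3, from a mean of 272.4 to 432.2, while 3 of its 7 probe sets had means under 15 in every group. The mean over all its probe sets changed by 0.26 (limma adjusted p = 0.701).

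The MAP3K13 promoter, at chr3:185282711-185282960 on the plus strand of GRCh38.p14 (RefSeq), holds the palindromic cAMP response element TGACGTCA, in capitals, with its first base 104 bases before the start. It is shown beside that of MAP4K4, the one gene that rose in AsPC-1, at chr2:101697457-101697706 on the plus strand, in which none of the 5 motifs searched was found.
MAP3K13: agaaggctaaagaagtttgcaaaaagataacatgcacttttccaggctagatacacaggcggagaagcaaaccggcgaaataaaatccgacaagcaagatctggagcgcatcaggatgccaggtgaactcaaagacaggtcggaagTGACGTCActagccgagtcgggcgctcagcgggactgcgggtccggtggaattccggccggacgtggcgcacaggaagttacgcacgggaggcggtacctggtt
MAP4K4: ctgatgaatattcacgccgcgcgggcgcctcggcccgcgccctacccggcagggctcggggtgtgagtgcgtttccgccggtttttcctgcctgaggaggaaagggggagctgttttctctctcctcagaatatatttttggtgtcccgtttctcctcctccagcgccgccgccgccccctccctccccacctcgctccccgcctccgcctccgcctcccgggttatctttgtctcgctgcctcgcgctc
The motifs were searched on both strands: the AP-1 site TGANTCA (6.60% of all promoters), the cAMP response element TGACGTCA (1.77%), the EGR site GCGTGGGCG (0.711%), the NF-kB consensus and the CArG box of serum response factor (1.14%). Of the 34 promoters of the family, 0 held the AP-1, EGR or CArG letters and 2 held the cAMP response element, those of MAP3K13 and MAPK10. No match says only that these letters are not in this window. The median GC content of the family's promoters was 72.8%, against 58.0% over all promoters.

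MAP2K1, the MEK1 gene, was the only MAP2K gene past the threshold in BxPC-3. It read 520.9, 515.5 and 494.1 untreated and 867.5, 717.5 and 796.2 after PMA, without overlap, a change of 0.63 ± 0.17 (SE, limma adjusted p = 0.0447), or 1.55-fold. In AsPC-1 the readings were 235.5, 185.8 and 197.3 untreated and 375.5, 281.4 and 291.6 after PMA. The treated arrays there were higher too, without overlap, and the change of 0.60 ± 0.17 was of similar size but did not pass (limma adjusted p = 0.0930). With the cell passage as a replicate block it passed in AsPC-1 (limma adjusted p = 0.0427). The difference between the responses of the lines was 0.03 ± 0.24. MAP2K1 is represented by 1 probe set.

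MAP3K4, or MEKK4, which feeds p38 and JNK, fell in BxPC-3. It read 510.0, 690.6 and 622.2 untreated and 240.5, 280.1 and 326.0 after PMA, and every treated array lay below every untreated one. The change was -1.10 ± 0.22 (SE, limma adjusted p = 0.0117). The treated level came near that of AsPC-1, where the gene read 184.0, 234.9 and 283.4 untreated and 284.3, 203.6 and 183.8 after PMA, a change of -0.07 ± 0.22.

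**Figure D2:**
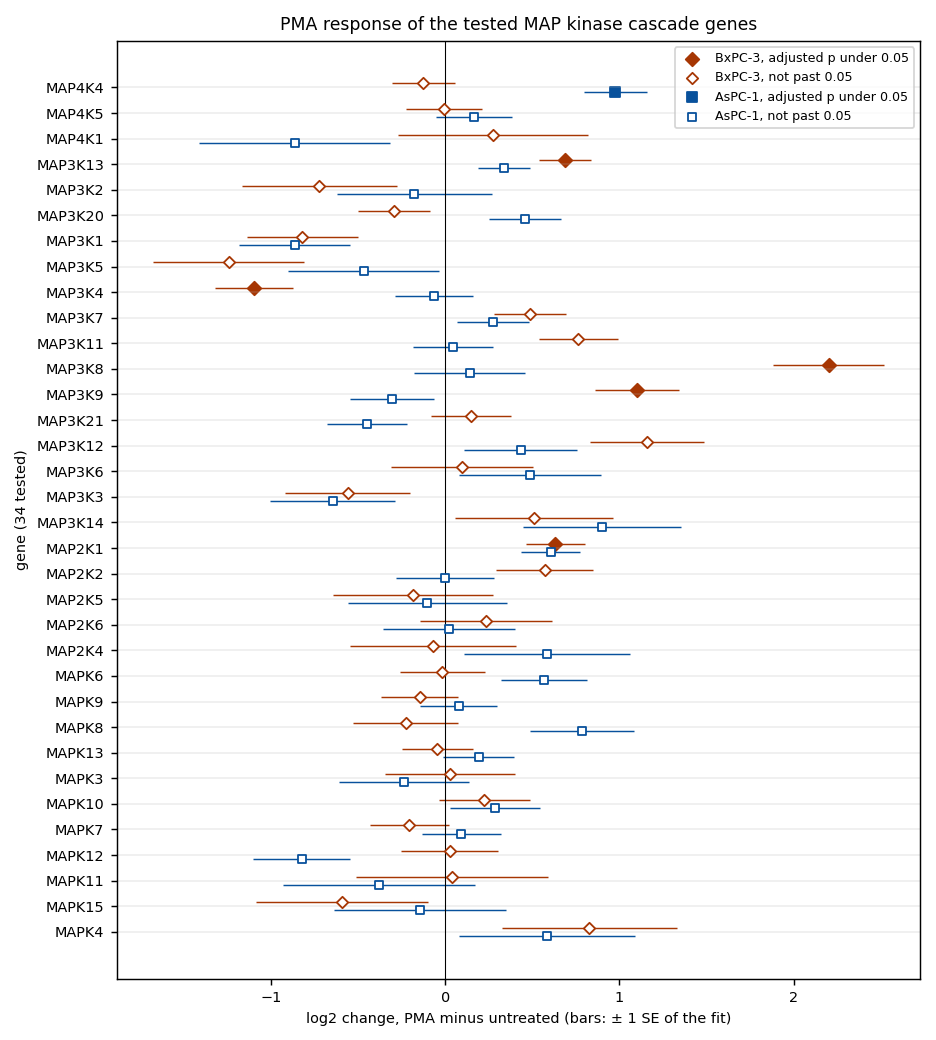
Log2 change with PMA (x axis, bars ± 1 SE of the fit) of the 34 tested genes in BxPC-3 and AsPC-1, with filled symbols for an adjusted p under 0.05. MAP3K8 lies farthest from 0 at 2.20 in BxPC-3 and at 0.14 in AsPC-1, while MAP4K4 lies at -0.13 and 0.98.

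Several further MAP3K genes stood apart between treated and untreated BxPC-3 arrays without passing the test. MAP3K12, or DLK, which feeds JNK, read 59.4, 77.0 and 88.8 untreated and 165.5, 135.3 and 215.9 after PMA, with limma adjusted p = 0.0544. MAP3K5, or ASK1, a kinase activated by oxidative stress, read 406.8, 362.9 and 527.2 untreated and 134.1, 237.9 and 178.0 after PMA, with limma adjusted p = 0.113. MAP3K2, or MEKK2, a kinase upstream of ERK5 and JNK, read 816.1, 855.4 and 1034.3 untreated and 573.9, 594.0 and 466.4 after PMA, with limma adjusted p = 0.391. With the cell passage as a replicate block these 3 genes passed, MAP3K12 at 1.16 (limma adjusted p = 0.00907), MAP3K5 at -1.24 (0.0126) and MAP3K2 at -0.72 (0.0257), so that 5 genes rose and 3 fell, while the calls over all 16099 genes went from 937 to 1645. The spread in the unblocked fit is pooled over both lines, and MAP3K2 and MAP3K5 differed widely between AsPC-1 passages, as described below.

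Counts in BxPC-3 also moved with single arrays. Leaving out AsPC-1 PMA replicate 1, which enters this comparison only through the pooled spread, gave 9 calls, 6 higher and 3 lower, adding MAP3K12, MAP3K11 (0.76, limma adjusted p = 0.0255), MAP3K5 and MAP3K1 (-0.82, limma adjusted p = 0.00492). Over all genes the same step took the calls from 937 to 2394. Leaving out any one of the 6 BxPC-3 arrays left 1 or 2 calls, with MAP3K8 called in each case. Over all genes these 6 fits gave 325 to 469 calls, against 937 with all arrays. MAP3K9, MAP3K13 and MAP2K1 lost their calls in all 6 of these fits, and MAP2K1 also without AsPC-1 untreated replicate 2 or 3 or treated replicate 3. MAP3K4 lost its call without untreated replicate 2 or 3 or treated replicate 1 of BxPC-3. Fitting the 6 BxPC-3 arrays alone gave 12 calls, 8 higher and 4 lower, against 3535 of all 16099 genes.

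MAP3K11, or MLK3, another JNK pathway kinase, read 104.0, 87.2 and 81.5 untreated and 137.2, 216.7 and 126.7 after PMA. MAP3K1, or MEKK1, read 420.1, 368.6 and 545.1 untreated and 238.2, 287.4 and 219.0 after PMA. Both separated the groups, and neither passed in the fit to all arrays, with limma adjusted p = 0.0689 and 0.154. MAP3K14, the NF-kB inducing kinase NIK, changed by 0.51 ± 0.45 in BxPC-3 (limma adjusted p = 0.585), and MAP3K7, the kinase TAK1, by 0.49 ± 0.21 (limma adjusted p = 0.200). For MAP3K7, 2 other probe sets with the x mark passed as features of their own, with changes of 0.85 and 0.82 (limma adjusted p = 0.0350 and 0.0343). Its remaining probe set went the other way in BxPC-3, from a mean signal of 109.0 untreated to 66.7 after PMA.

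Of the terminal kinases, 0 of 11 MAPK genes passed in BxPC-3 in limma, against 5.82% of all genes. In the same fit 0 of them had an unadjusted p under 0.05, as had 3361 of all 16099 genes. MAPK3 changed by 0.02 ± 0.37, MAPK6 by -0.02 ± 0.25, MAPK8 by -0.23 ± 0.30 and MAPK9 by -0.15 ± 0.22. MAP2K2 changed by 0.57 ± 0.28, MAP2K6 by 0.23 ± 0.38 and MAP2K4 by -0.07 ± 0.48.

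**Figure D3:**
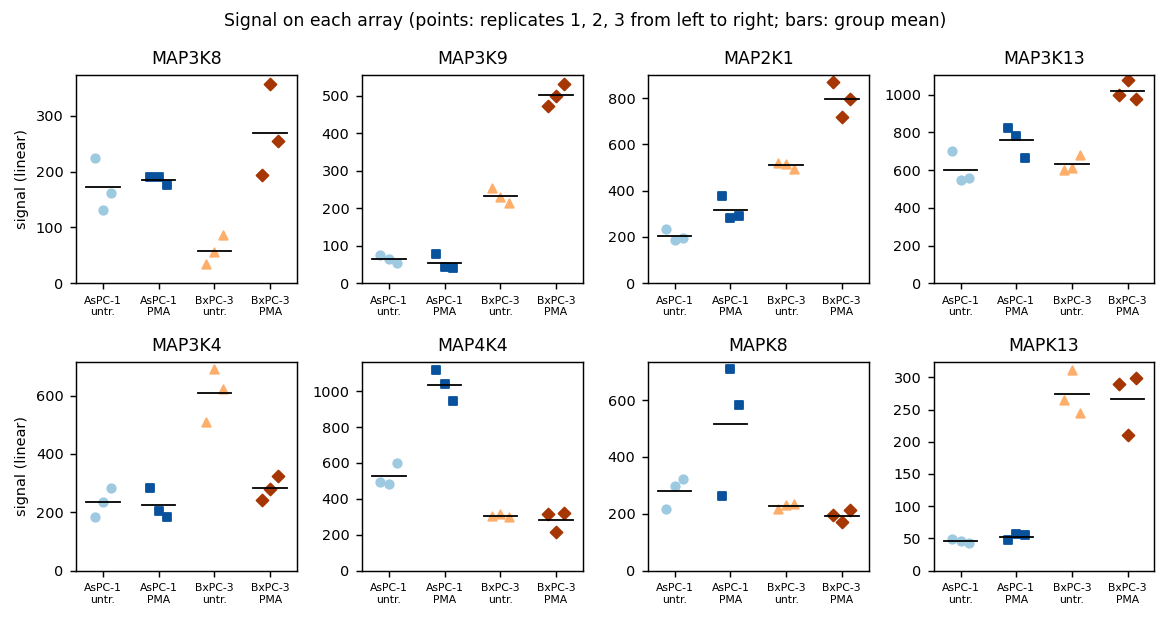
Linear signal of 8 genes on each array (points from left to right are replicates 1, 2 and 3 of a group, bars are group means, the axis starts at 0). MAP3K8 rises from 58.2 to 269.0 in BxPC-3, MAP4K4 from 525.9 to 1034.9 in AsPC-1, and MAPK8 in AsPC-1 shows replicate 1 after PMA at 261.6 below the others at 708.0 and 582.3.

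In AsPC-1, PMA raised 1 of the 34 genes, MAP4K4, and lowered 0 (limma), against a background of 1.24% and 0.721% of all genes. Treated and untreated arrays did not overlap for 5 of the 34 genes, against 14.4% of all genes: MAP4K4, MAP2K1, MAP3K20, MAP3K21 and MAPK12. The median change was 0.08, against -0.10 for all genes, and 8 of the 34 genes had an unadjusted p under 0.05 in limma, as had 2657 of all 16099. The AsPC-1 and BxPC-3 comparisons share no arrays, only the pooled spread.

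MAP4K4, a kinase of the MST family that can feed JNK and acts in cell migration, read 492.8, 484.7 and 600.1 in untreated AsPC-1 and 1118.3, 1039.2 and 947.3 after PMA. All treated arrays lay well above all untreated ones. The change was 0.98 ± 0.18 (SE, limma adjusted p = 0.0164), or 1.97-fold. In BxPC-3 it read 302.9, 313.2 and 298.3 untreated and 316.6, 214.6 and 318.8 after PMA, a change of -0.13 ± 0.18 (limma adjusted p = 0.757). The call in AsPC-1 was lost when the 6 AsPC-1 arrays were fitted alone (limma adjusted p = 0.226, with 0 calls among all genes), when eBayes ran without the trend (0.0545), and when untreated replicate 2 or treated replicate 2 or 3 was left out.

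The probe sets of MAP4K4 disagreed in BxPC-3. In AsPC-1 the kept probe set and 3 others rose as features of their own, by 0.98, 1.30, 1.37 and 1.85. In BxPC-3, 3 of these 4 lay within 0.13 of no change, while the fourth, the one at 1.85 in AsPC-1, rose by 1.12 ± 0.20 (limma adjusted p = 0.00718), from a mean signal of 135.1 to 296.1. A dimmer probe set changed by 1.08 ± 0.34 in BxPC-3 and 1.33 ± 0.34 in AsPC-1, without passing (limma adjusted p = 0.0900 and 0.0812). The probe sets bind different stretches of the gene's transcripts, and which transcripts they bind was not analysed here.

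**Figure D4:**
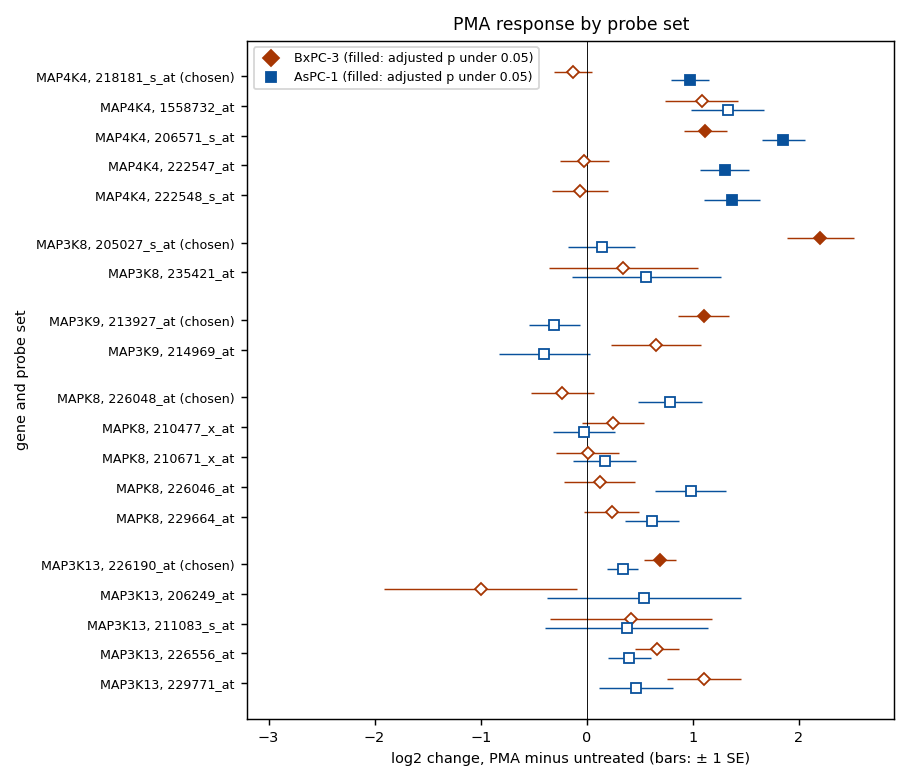
Log2 change with PMA (x axis, bars ± 1 SE) for each tested probe set of 5 genes in both lines, filled where the adjusted p is under 0.05. For MAP4K4 the kept probe set lies at -0.13 in BxPC-3 and 0.98 in AsPC-1, whereas the third one lies at 1.12 and 1.85.

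Passage 8 of AsPC-1, which supplied replicate 1 of both AsPC-1 groups, differed from passages 10 and 12 for several of these genes. MAP3K2 read 309.2 against 1096.9 and 1167.8 untreated, and 344.8 against 907.6 and 872.8 after PMA. MAP3K5 read 810.5 against 432.6 and 471.1 untreated, and 956.3 against 250.1 and 257.4 after PMA. MAP2K2 was likewise higher in that passage, at 298.5 against 159.1 and 155.5 untreated. For several other genes replicate 1 differed from the others only after PMA: MAP3K1 read 647.1, 631.9 and 818.1 untreated and 735.1, 276.4 and 269.0 after PMA.

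Without AsPC-1 PMA replicate 1, AsPC-1 had 10 calls among the 34 genes, 5 up and 5 down, with 2 treated arrays remaining. Those that rose were MAP3K14 (1.59), MAPK8 (1.21), MAPK6 (0.92), MAP4K4 (0.92) and MAP2K1 (0.48). Those that fell were MAP3K1 (-1.34), MAP3K3 (-1.11), MAP3K5 (-1.10), MAPK12 (-1.10) and MAP3K9 (-0.59). Over all genes the same step took the calls from 316 to 3147, so the rise in calls was not particular to the kinases. With all arrays kept and the passage as a replicate block, 4 genes passed and all rose: MAP4K4, MAP2K1, MAPK6 (0.57, limma adjusted p = 0.0461) and MAPK8 (0.79, limma adjusted p = 0.0488). Over all genes the block took the calls from 316 to 904, of which 449 were higher and 455 lower.

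MAPK8 read 216.7, 296.8 and 323.1 in untreated AsPC-1 and 261.6, 708.0 and 582.3 after PMA, higher in each passage pair but with overlapping groups. In BxPC-3 it read 215.0, 229.9 and 233.6 untreated and 194.9, 171.8 and 212.6 after PMA, lower in each pair. That direction is of the kept probe set alone: the gene's 4 other probe sets changed by 0.24, 0.01, 0.12 and 0.23 in BxPC-3, and none of the 5 passed. MAPK6 in AsPC-1 read 1249.2, 1818.9 and 1779.5 untreated and 1443.1, 3143.2 and 2902.7 after PMA, again higher in each pair. MAPK12, or p38 gamma, went the other way, from 52.5, 37.0 and 37.9 to 34.1, 18.6 and 17.5, a change of -0.83 ± 0.28 without overlap (limma adjusted p = 0.155). Another probe set of MAPK12 did not show this fall, with group means of 35.8 untreated and 38.1 after PMA in AsPC-1. In BxPC-3 that probe set went from 15.6 to 4.46. Over the 34 genes, 9 were higher and 3 lower in all 3 AsPC-1 pairs, and 9 were higher and 8 lower in all 3 BxPC-3 pairs. Of all 16099 genes, 14.7% were higher and 23.1% lower in every AsPC-1 pair, and 23.5% and 26.8% in every BxPC-3 pair.

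Of the remaining genes of the naming rule in AsPC-1, MAP3K8 and MAP3K14 changed by 0.14 ± 0.32 and 0.90 ± 0.45, MAP3K5 by -0.47 ± 0.43, MAPK3 by -0.24 ± 0.37 and MAPK9 by 0.08 ± 0.22. The MAP2K genes MAP2K2, MAP2K4 and MAP2K6 changed by -0.00 ± 0.28, 0.58 ± 0.48 and 0.02 ± 0.38. All of these had a limma adjusted p above 0.05 with all arrays.

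Whether the response differed between the lines was tested directly. In limma 0 of the 34 genes passed for the difference of the PMA responses, against 0.491% of all genes, and 7 had an unadjusted p under 0.05, against 8.91% of all genes. The sizes for the genes called in 1 line were 2.06 ± 0.45 for MAP3K8 (limma adjusted p = 0.0791), 1.41 ± 0.34 for MAP3K9 (0.126), 0.35 ± 0.21 for MAP3K13 (0.695), 0.03 ± 0.24 for MAP2K1 (0.992), -1.03 ± 0.32 for MAP3K4 (0.292) and -1.10 ± 0.25 for MAP4K4 (0.107), each as BxPC-3 minus AsPC-1. With the passage as a replicate block MAP3K8 passed (limma adjusted p = 0.0251), while the calls over all genes went from 79 to 126. Without AsPC-1 PMA replicate 1, MAP3K8 (2.08), MAP3K9 (1.69), MAP4K4 (-1.05), MAPK6 (-0.94) and MAPK8 (-1.44) passed. That step took the calls over all genes from 79 to 713, so the rise in calls was not particular to the kinases.

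Before treatment the lines differed in 10 of the 34 genes, 7 higher in BxPC-3 and 3 higher in AsPC-1 (limma), against a background of 16.8% and 15.6% of all genes. The arrays of the lines did not overlap for 16 of the 34 genes, against 50.6% of all genes. The median difference of the 34 genes, BxPC-3 minus AsPC-1, was -0.24, and that of all genes -0.08. Centring each array on its median made the split 7 and 5, and quantile normalization 8 and 6. For all genes these splits were 2512 higher and 2714 lower, and 2806 and 2697, against 2699 and 2517 as deposited.

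MAPK13, the p38 delta gene, differed most of the 34 genes in this comparison. It read 265.6, 310.8 and 244.6 in untreated BxPC-3 and 48.3, 46.1 and 42.7 in untreated AsPC-1, so the lines lay far apart. The difference was 2.50 ± 0.20 (SE, limma adjusted p = 6.16e-07), or 5.66-fold, and its other probe set gave 2.31. After PMA it read 289.7, 211.1 and 298.8 in BxPC-3 and 46.7, 56.8 and 54.6 in AsPC-1, changes of -0.05 ± 0.20 and 0.19 ± 0.20.

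MAP3K9 was higher in BxPC-3 by 1.81 ± 0.24, MAP3K4 by 1.38 ± 0.22, MAPK10 by 1.31 ± 0.26 and MAP2K1 by 1.30 ± 0.17. MAP3K6, or ASK2, was higher by 1.25 ± 0.41 and MAP4K5, a MAP4K of the germinal centre kinase family, by 0.88 ± 0.22. Higher in AsPC-1 were MAP3K8, by 1.58 ± 0.32 in size (BxPC-3 minus AsPC-1 was -1.58), MAP3K11 at -0.998 ± 0.23 and MAP4K4 at -0.77 ± 0.18. The limma adjusted p of these 9 genes ran from 4.58e-05 for MAP2K1 to 0.0302 for MAP3K6. MAP3K6, in AsPC-1 55.1, 50.8 and 15.6, lost its call without AsPC-1 untreated replicate 3 or without any one untreated BxPC-3 array. With all probe sets of a gene averaged, MAP3K6, MAP3K8, MAP3K11 and MAP4K4 did not pass (limma adjusted p from 0.0607 to 0.173).

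After PMA the lines differed in 13 of the 34 genes, 8 higher and 5 lower in BxPC-3 (limma), against 18.3% and 15.2% of all genes, with no overlap for 16 of the 34, against 43.4%. Centring arrays on their medians turned the split to 5 higher and 7 lower, and quantile normalization to 6 and 7. For all genes it went from 2941 higher and 2449 lower to 2486 and 2787 after centring, and to 2872 and 2741 after quantile normalization. The median of all genes was 0.03 as deposited and -0.08 after centring. Of the genes called untreated, 6 were called again, which is 6 of 10 untreated and 6 of 13 treated calls: MAP2K1, MAP3K9, MAP4K4, MAP4K5, MAPK10 and MAPK13. The same overlap was not counted over all genes, so these shares have no background and cannot be read as high or low.

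MAP3K9 had the widest gap after PMA, 474.4, 499.1 and 532.6 in BxPC-3 against 77.4, 42.2 and 40.4 in AsPC-1, a difference of 3.22 ± 0.24 (SE, limma adjusted p = 2.67e-07), or 9.33-fold. MAP4K4 was lower in BxPC-3 by a difference of -1.88 ± 0.18 (limma adjusted p = 2.78e-06). MAPK13, MAP2K1, MAPK10 and MAP4K5 stayed higher in BxPC-3, at 2.26, 1.33, 1.25 and 0.71, the last without its call after centring or quantile normalization and at 0.43 without AsPC-1 PMA replicate 1 (limma adjusted p = 0.0357). MAP3K8, which was lower in BxPC-3 before treatment, gave 0.48 ± 0.32 after it (limma adjusted p = 0.278), with all BxPC-3 arrays above all AsPC-1 arrays.

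The JNK genes MAPK8 and MAPK9 were lower in BxPC-3 after PMA, at -1.29 ± 0.30 and -0.76 ± 0.22 (limma adjusted p = 0.00425 and 0.0164). The kept probe set of MAPK8 was 1 of 5, and the others lay between -0.74 and 0.07 without passing. Averaged, the MAPK8 probe sets gave -0.47 (limma adjusted p = 0.121). Without AsPC-1 PMA replicate 1 the kept one gave -1.72 (limma adjusted p = 6.33e-06). MAP3K20, the stress kinase ZAK, was lower at -1.08 ± 0.21, and 6 of its 7 probe sets passed in that direction as features of their own. MAPK7, the ERK5 gene, was lower at -0.89 ± 0.23, with its other probe set at -1.51. MAP3K21, or MLK4 (0.74), MAP3K7 (0.58) and MAP3K13 (0.43) were higher in BxPC-3. The limma adjusted p of MAP3K7 and MAP3K13 were 0.0476 and 0.0413, and MAP3K7 lost its call without AsPC-1 PMA replicate 1 (0.41, limma adjusted p = 0.0978). Each of these 2 lost its call without 9 of the 12 arrays in turn, and without BxPC-3 PMA replicate 2 the total fell from 13 to 8 calls. Over all genes that step took the calls from 5390 to 4512. MAP3K21 lost its call without AsPC-1 PMA replicate 3 or BxPC-3 PMA replicate 2, MAPK9 without the latter, and MAP4K5 without any one treated BxPC-3 array.

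**Figure D5:**
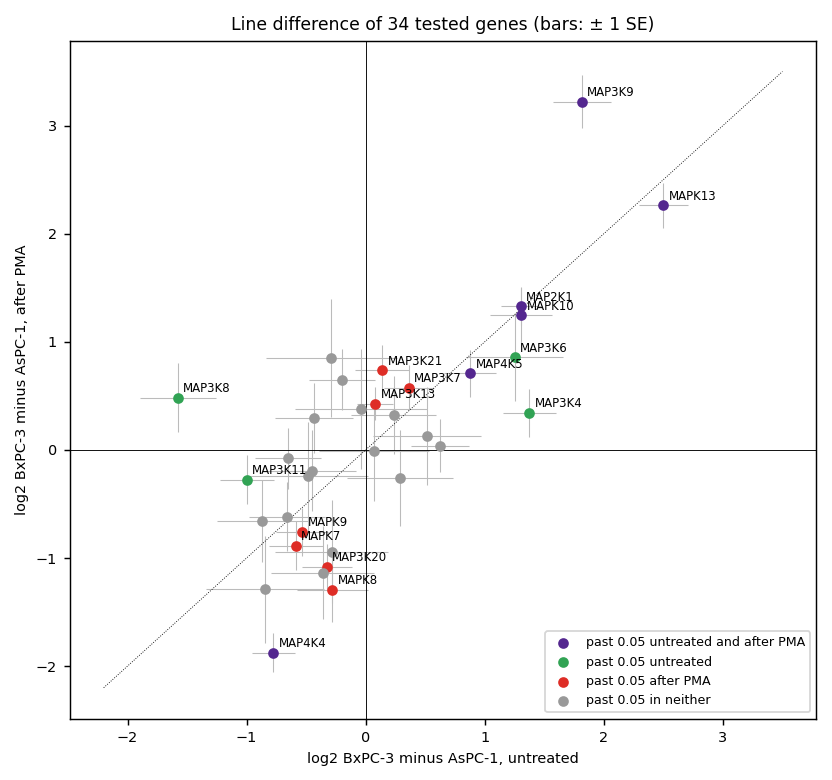
Difference between the lines, BxPC-3 minus AsPC-1 as log2, for the 34 genes untreated (x axis) and after PMA (y axis), with bars of ± 1 SE and a dotted line of equal values. MAPK13 lies at 2.50 and 2.26, MAP3K9 at 1.81 and 3.22, MAP3K8 at -1.58 and 0.48, and MAP4K4 at -0.77 and -1.88.

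Other genes of the pathway were read from 7 lists in the same fit. As background to their PMA counts, 2.52% of all genes rose and 3.30% fell in BxPC-3, and 1.24% and 0.721% in AsPC-1. An unadjusted p under 0.05 in limma was found for 3361 of all 16099 genes in BxPC-3 and 2657 in AsPC-1. Of 15 MAP kinase phosphatases tested, which switch the kinases off, 4 rose in BxPC-3 and 5 in AsPC-1, and 0 fell in limma, with 6 and 7 at an unadjusted p under 0.05 in either direction. DUSP5, a nuclear ERK phosphatase, went from a mean signal of 255.9 ± 33.4 to 2182 ± 296 (SD, n = 3) in BxPC-3, a change of 3.08 ± 0.23, and from 29.9 ± 7.4 to 140.2 ± 28.4 in AsPC-1, a change of 2.13 ± 0.23. DUSP10, which acts on JNK and p38, rose by 2.62 ± 0.30 in BxPC-3 and by 1.62 in AsPC-1, and passed in both. DUSP1 rose by 2.28 ± 0.52 and 3.51 ± 0.52 in BxPC-3 and AsPC-1. DUSP2 also passed in both lines, with a change of 1.62 in BxPC-3. In AsPC-1 it went from 1.70, 4.68 and 1.97 untreated, all below the filter level, to 13.9, 57.9 and 41.4 after PMA. No size of its change is therefore given for AsPC-1. Without AsPC-1 PMA replicate 1 the AsPC-1 changes were 2.30 for DUSP5, 1.99 for DUSP10 and 4.39 for DUSP1.

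Of 10 SPRY, SPRED and related feedback inhibitors tested, which restrain RAS and receptor signalling, 3 rose in each line and 0 fell in limma, with 4 and 5 at an unadjusted p under 0.05. These were ERRFI1, SPRY4 and SPRY2, with changes of 2.11 ± 0.33, 1.61 ± 0.23 and 1.12 ± 0.29 in BxPC-3 and 2.14 ± 0.33, 2.13 ± 0.23 and 1.77 ± 0.29 in AsPC-1, there 2.65, 2.24 and 2.19 without PMA replicate 1. The median change of this list was 0.54 and 0.32 in BxPC-3 and AsPC-1, and that of the phosphatases 0.38 and 0.35, against 0.00 and -0.10 for all genes.

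Upstream of the kinases, 1 of 22 protein kinase C and RAS activator genes tested rose in BxPC-3, the RAS exchange factor RASGRP3, and 0 passed in AsPC-1 in limma (1 at an unadjusted p under 0.05). RASGRP3 read 2.41, 6.76 and 1.22 untreated and 26.3, 17.8 and 19.1 after PMA in BxPC-3. It passed the filter only through those treated arrays, and the untreated ones lay below the filter level, so the call cannot be read as a size. A mixed list of kinases (13 tested) held ARAF, MOS, TNIK, MINK1 and genes named KSR, TAOK, PAK or STK. It gave 0 calls in either line, with 2 in BxPC-3 and 1 in AsPC-1 at an unadjusted p under 0.05 in limma. Of 18 scaffolds and adaptors, TAB3 (0.88 ± 0.19) and TAB2 (0.72 ± 0.15), partners of the kinase from MAP3K7, rose in AsPC-1, and 0 passed in BxPC-3 in limma (4 at an unadjusted p under 0.05). The 11 downstream kinases gave 0 calls in either line, with 2 in BxPC-3 and 1 in AsPC-1 at an unadjusted p under 0.05 in limma. Of 19 nuclear substrates, the ETS factor ELK3 rose in both lines (0.81 ± 0.18 in BxPC-3 and 1.18 ± 0.18 in AsPC-1), and ATF2 fell in BxPC-3 (-1.14 ± 0.20). Without AsPC-1 PMA replicate 1, TAB3, TAB2 and ELK3 gave 0.85, 0.79 and 1.32 in AsPC-1. More list genes passed in that fit: in AsPC-1 6 phosphatases rose and 3 fell, 6 scaffolds rose and 1 fell, 7 nuclear substrates rose and 1 fell, and 2 activators rose. Of the SPRY and SPRED list 4 rose and 1 fell, of the downstream kinases 1 rose and 1 fell, and of the mixed kinase list 0 rose and 2 fell. The 3147 calls over all genes were 981 higher and 2166 lower.

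Between the untreated lines, the list of protein kinase C and RAS activators gave 4 genes higher and 2 lower in BxPC-3. The kinase PRKCH read 355.3 ± 30.1 in BxPC-3 and 10.4 ± 4.5 in AsPC-1 (a difference of 4.803 ± 0.27), RAP1A was higher by 1.46 ± 0.14, and PRKCA was lower at -1.62 ± 0.31. The adaptor ARRB1 was lower in BxPC-3, at -4.04 ± 0.27, as was LAMTOR2, part of the scaffold of MEK and ERK on late endosomes, at -1.65 ± 0.16. The inhibitor SPRY4 was lower as well, at -2.15 ± 0.23, and the phosphatase DUSP5 higher, at 2.99 ± 0.23. Calls over the lists were 3 of 13 kinases of the mixed list (KSR1, PAK2 and TNIK), 5 of 18 scaffolds, 3 of 11 downstream kinases, 10 of 19 nuclear substrates, 5 of 15 phosphatases and 5 of 10 SPRY and SPRED genes, against 32.4% of all genes. After PMA the counts were 7 of 22 activators, and over the other lists in the same order 1, 5, 2, 9, 7 and 5, against 33.5% of all genes.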

How the data were processed

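Linear signal intensities of 54675 probe sets on 12 arrays were deposited by the authors, made with MAS5 per the submitters' processing notes (its version is not stated). Gene symbols came from the platform annotation, and names from GRCh38.p14. Values were used as log2(signal + 3), computed here from the deposited intensities without further normalization, and fold changes on this scale understate the change of dim genes. Array signal has no read depth, and the number of arrays limits the precision.

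One linear model with a mean per group, over all 12 arrays, was run in limma 3.58.1 under R 4.3.3 (eBayes with trend, 8 residual degrees of freedom), two-sided, with Benjamini-Hochberg adjustment over 16099 genes and a threshold of 0.05. Simulated arrays with known changes were used to test the code. For 1 gene, the smallest p of an exact 3 against 3 comparison is 0.1. Replicates are cell passages, so p-values measure the spread between passages.

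Named are all members past the threshold, a fixed set of core kinases (4 genes of it are not analysed here), and some list genes. For PMA in each line these are up to 3 genes per list past the threshold with the largest changes. The other line is also given where they passed there. Between untreated lines only some of the list genes past the threshold are named, and for the lines after PMA none. Members, lists and rule were chosen with earlier results of these data known. Per the labels, numbers pair arrays by passage within a line: across genes, deviations of paired arrays from their group means correlated in AsPC-1 (r = 0.411, 0.206, 0.157), while BxPC-3 gave r = -0.054, -0.126, -0.059. Between lines arrays share only a number. Alternatives were scalings, pseudocounts of 1 and 16, filters, all probe sets averaged or taken singly, eBayes without trend, the arrays of a comparison alone, a replicate block and leaving out each array.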

Additional observations from a re-analysis of the deposited data

Results flagged for a closer look

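The PMA response of MAPK8, the JNK1 gene, had opposite signs in the lines in every passage pair. Treated minus untreated, on the log2 scale, was 0.27, 1.25 and 0.84 in the AsPC-1 pairs and -0.14, -0.41 and -0.13 in the BxPC-3 pairs. The difference, BxPC-3 minus AsPC-1, was -1.02 ± 0.42 (SE), and its own limma test did not pass (adjusted p = 0.51). The fall in BxPC-3 is of the kept probe set alone: the 4 others changed there by 0.24, 0.01, 0.12 and 0.23, none of them past the threshold. In AsPC-1 the mean signal of these 4 went from 97.5 to 214.5, 64.9 to 105.2, 18.5 to 20.7 and 19.4 to 18.5 with PMA.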

How the results depend on the processing

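Counts of calls moved as follows. For PMA in BxPC-3 (5 calls), averaging all probe sets gave 2, eBayes without the trend 3, the 6 arrays alone 12 and the replicate block 8, and leaving out 1 array gave 1 to 9. Calls over all genes, 937 in the main fit, became 724, 680, 3535 and 1645 in the same order, and 325 to 2394 without 1 array. For PMA in AsPC-1 (1 call), quantile normalization gave 2, eBayes without the trend 0, the arrays alone 0 and the replicate block 4, and leaving out 1 array gave 0 to 10. There the calls over all genes, 316 in the main fit, became 314, 113, 0 and 904, and 61 to 3147 without 1 array. For the lines untreated (10 calls) leaving out 1 array gave 9 to 15, and 4124 to 6542 over all genes (5216 in the main fit). For the lines after PMA (13 calls) the arrays alone gave 8 and leaving out 1 array 8 to 17. All genes gave 4348 and 4300 to 6542 calls in these fits, against 5390 in the main fit. For the difference of responses (0 calls) the replicate block gave 1 and leaving out 1 array 0 to 5. The calls over all genes were 126 and 9 to 713, against 79 in the main fit. Of single values past the threshold, MAP3K13 after PMA changed sign when all its probe sets were averaged (-0.34, limma adjusted p = 0.426). Pseudocounts of 1 and 16 moved no count by over 1.5 times and ended no call. MAP3K8 in BxPC-3 kept its call without each of the 12 arrays, and MAPK13 between lines kept it under every alternative run. Between lines, a block of replicate numbers ended the calls of MAP3K7 and MAP3K13 after PMA (limma adjusted p = 0.0630 and 0.0551) and added MAPK6 untreated (0.0314). With this block the counts became 11 untreated and 11 after PMA, and 5227 and 5392 over all genes. Of the 12 arrays, 2 correlated best with their own number in the other line. The cause of these shifts was not tested. Dim genes such as MAP2K4 and MAPK4 limit what could be called.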
